A study of Mus musculus with 8 samples.

Results

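The lipid droplet coat and its lipases were examined in islets with raised UCP2. The set comprised 10 genes, namely the CIDE genes *Cidea*, *Cideb* and *Cidec*, the perilipins *Plin1* to *Plin5*, and the triglyceride lipases *Pnpla2* and *Lipe*. The members were chosen by symbol, from a proposal made with the expression values of these same arrays known, so the difference of each member between the groups is given as a description without a p-value. On the array, 17 probes out of 56605 carried the symbols of these 10 genes, which stand among 26894 named genes. Of these, 12 probes of 9 genes were detected well enough to enter the comparison, and *Plin1* was not.

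RNA came from handpicked islets of male mice, 4 samples from βUCP2Tg mice and 4 from their WT littermates, and each sample was applied to its own one-colour array. The transgene places a mouse *Ucp2* cDNA behind the rat *Ins2* promoter, which drives expression in β-cells, and the line had been backcrossed to C57BL6/J. The methods give an age of 8 to 12 weeks for mice used for islet isolation, and all islets of both genotypes were kept at 200 mg/dL glucose for 8 h. The sources used here do not state whether a sample pooled several mice or how many founder lines were used, so n, SD and p refer to samples and measure only the spread between them. An islet also holds endocrine cells other than β-cells, endothelium and macrophages.

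Neutral fat is stored in cells as lipid droplets, whose surface is covered by a single layer of phospholipid and by coat proteins. Perilipins sit on this surface and limit the access of lipases, and CIDE proteins gather where droplets touch and let lipid pass from the smaller droplet to the larger. *Pnpla2* encodes adipose triglyceride lipase (ATGL), which removes the first fatty acid from a triglyceride, and *Lipe* encodes hormone-sensitive lipase, which acts next. In β-cells perilipin 2 is the best known droplet coat, and fatty acids released from droplets are one source of lipid signals for insulin secretion.

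The sequences that carry the measurements are shown for *Cidec*, which has a single probe, and for *Plin2* and *Cideb*, each of which has 2 probes that gave different values. The probes are taken from the deposited table and printed 5′ to 3′ in lower case. Where in the transcript each lies was not determined. The longest run of bases shared by the 2 probes of *Plin2* was 5, and by those of *Cideb* 4, so the members of a pair read different stretches.
Cidec A_51_P490456: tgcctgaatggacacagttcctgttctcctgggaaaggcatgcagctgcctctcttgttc
Plin2 A_55_P1999648: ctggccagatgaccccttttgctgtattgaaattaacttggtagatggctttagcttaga
Plin2 A_66_P132059: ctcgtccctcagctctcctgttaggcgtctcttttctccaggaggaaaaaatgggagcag
Cideb A_66_P108685: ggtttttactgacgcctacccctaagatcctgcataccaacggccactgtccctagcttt
Cideb A_55_P2746861: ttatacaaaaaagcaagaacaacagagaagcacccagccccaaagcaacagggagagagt

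Levels are given as log2 of the background-subtracted intensity minus the 75th percentile of the same array, so that 0 is a fairly bright probe, and the level of a probe says nothing about its rank against another probe. On this scale the dimmest probes still well above background lay between -6.10 and -5.46, depending on the array. Before scaling, the 75th percentile of the βUCP2Tg arrays was 9.00 to 9.16 and that of the WT arrays 8.78 to 8.89 on the log2 scale, and each genotype occupied its own row of the slide, so slide position and genotype cannot be told apart. The labels were checked with *Ucp2*, whose brighter probe read 6.99 to 7.71 in βUCP2Tg and 0.92 to 1.46 in WT, a log2 fold change of 6.24 (SE 0.18, limma adjusted p = 9.3e-06). The other *Ucp2* probe read 0.78 to 0.90 in βUCP2Tg and 0.22 to 0.73 in WT, and its log2 fold change of 0.44 (SE 0.12) was not called (limma adjusted p = 0.0987). The mean of both probes gave 3.34. Across all 35363 probes tested, 145 were called, that is, passed a Benjamini-Hochberg adjusted p of 0.05 in limma with a change over 1.5-fold. By gene, 0.649% of the 17860 genes tested were called in either direction, 0.325% higher and 0.325% lower in βUCP2Tg.

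Certain arrays stood apart and touch the results below. The mean of 18 hypoxia response genes was 1.10 to 1.11 in βUCP2Tg replicates 1 to 3 but 2.38 in replicate 4, and it was 2.80 to 2.83 in WT replicates 2 to 4 but 1.83 in replicate 1. Transcripts of hepatocytes stood out in βUCP2Tg replicate 3, where *Alb* read 4.67 against -4.68 to -3.65 elsewhere. Among the 12 member probes tested, WT replicate 1 was the lowest of the WT arrays in 8 and the highest in 1.

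*Cidec* was the single member called, at a higher level in βUCP2Tg islets, and its arrays did not overlap between the groups. Its protein, also known as FSP27, enlarges droplets and is typical of white fat and of fatty liver. The level was -3.89, -3.74, -3.94 and -4.36 in βUCP2Tg replicates 1 to 4, and -5.80, -5.45, -6.05 and -5.65 in WT replicates 1 to 4. The βUCP2Tg arrays were thus all higher, and replicate 4 was the lowest of them. The means were -3.98 ± 0.27 and -5.74 ± 0.25 (SD, n = 4 each), a measured log2 fold change of 1.75 (SE 0.17) or 3.37-fold, which is inexact because 2 WT arrays did not have the probe well above background.

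The *Cidec* signal was nevertheless dim. In units of the scanner after background subtraction it was 27.5 to 39.6 in βUCP2Tg and 7.03 to 10.2 in WT. All 4 βUCP2Tg arrays detected it well above background, whereas among WT arrays replicates 1 and 2 did so. The 4 βUCP2Tg arrays alone thus met the requirement of detection on 4 arrays, and with detection required on all 8 the probe was not tested. Under a background correction that adds an offset of 50 to every signal (normexp) the log2 fold change was 0.28 and *Cidec* was not called. Leaving out single arrays gave log2 fold changes of 1.65 to 1.88, with the call lost without βUCP2Tg replicate 1, 2 or 3. As islets are a mixture, more RNA per cell and more cells that carry the transcript cannot be told apart in these data, for this and every other gene.

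The other CIDE genes did not share this difference. *Cidea*, known from brown fat and from the fusion of droplets, read -0.68, -0.72, -0.94 and -0.83 in βUCP2Tg and -1.12, 0.04, -0.45 and -0.35 in WT. The groups overlapped because WT replicate 1 was the lowest of all arrays, and the log2 fold change was -0.33 (SE 0.22). *Cideb*, the CIDE gene of liver and gut, which takes part in loading lipid onto lipoproteins, was bright on the first of its probes printed above. That probe read 3.42, 3.18, 3.02 and 2.73 in βUCP2Tg and 3.67, 2.63, 2.98 and 3.40 in WT, with a log2 fold change of -0.08 (SE 0.24). The groups overlapped throughout.

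The second *Cideb* probe behaved differently. Its level was -2.45, -2.55, -2.86 and -2.87 in βUCP2Tg and -1.90, -2.29, -2.09 and -1.64 in WT. All βUCP2Tg arrays lay below all WT arrays, with a log2 fold change of -0.71 (SE 0.16), and the probe was not called. Without WT replicate 1 *Cideb* was called lower, while its brighter probe had a log2 fold change of 0.08. In that setting 3759 of 34786 probes were called, against 145 with all arrays. The 2 probes therefore gave different accounts of the same gene, and which transcript each one detects was not tested.

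**Figure D1:**
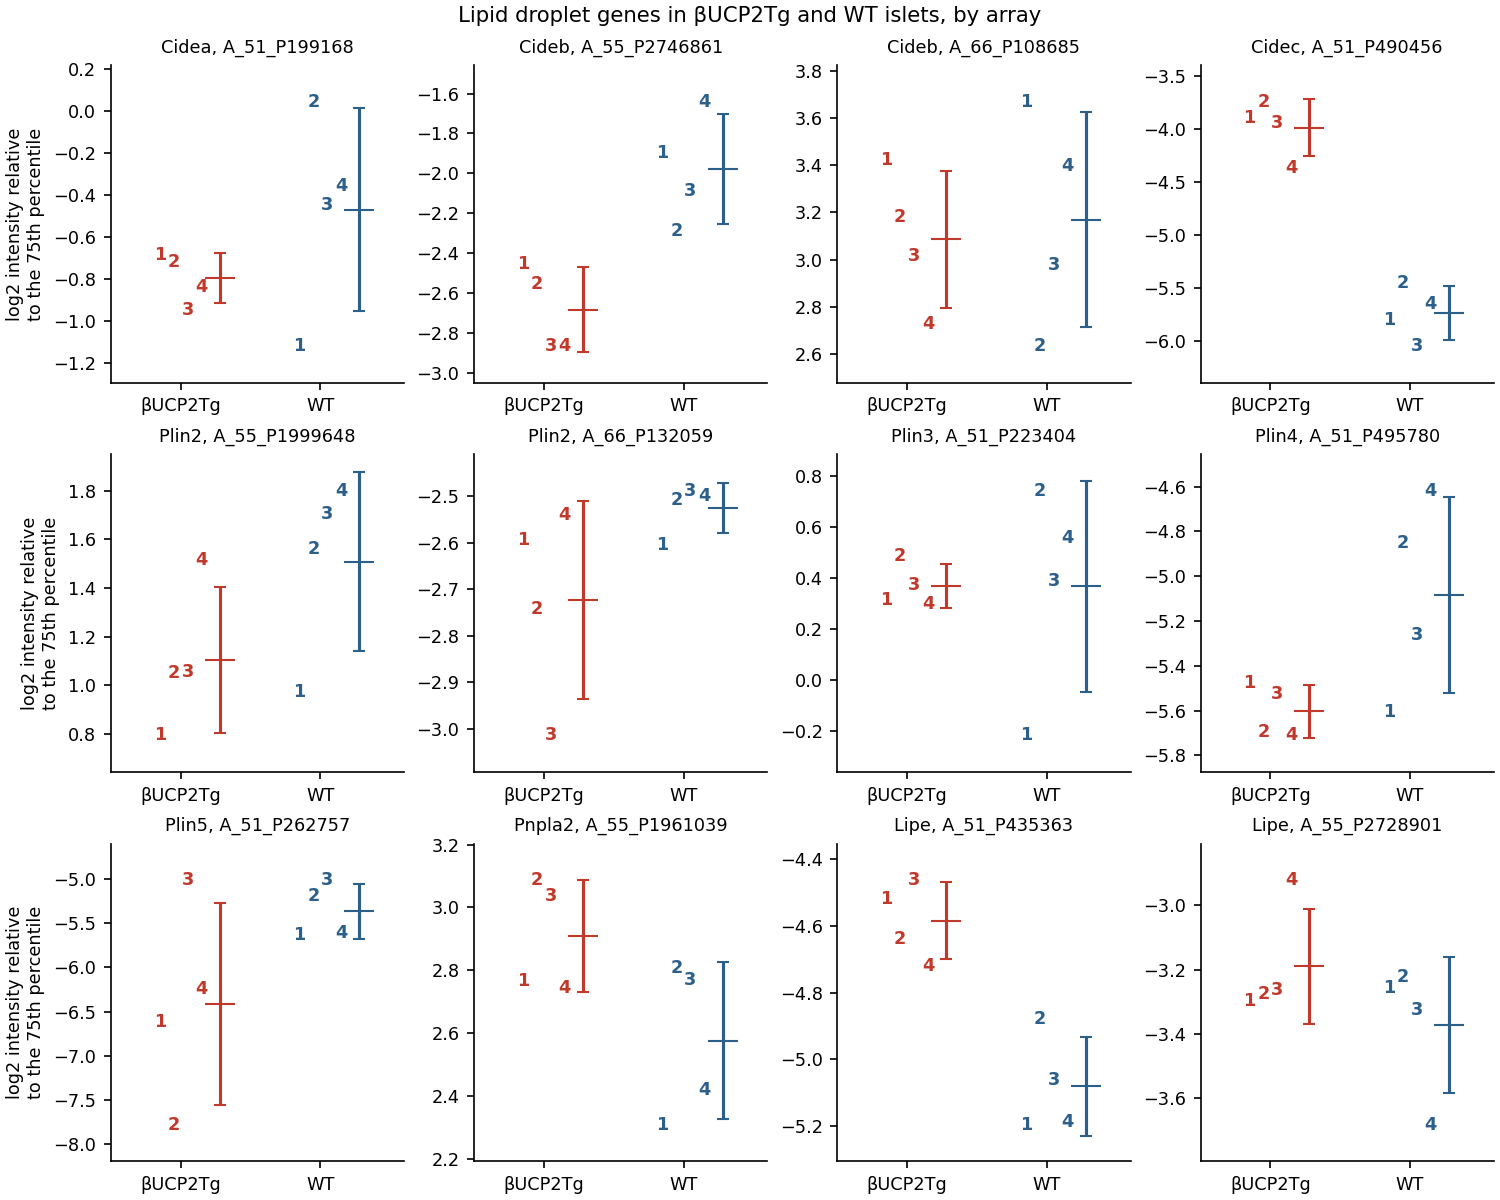
Level of each tested member probe, as log2 intensity relative to the 75th percentile of the array, in βUCP2Tg (red) and WT (blue) islets, each axis having its own range. Digits are replicate numbers and bars show the mean ± SD (n = 4). *Cidec* in βUCP2Tg lies between -4.36 and -3.74, above all WT arrays, and WT replicate 1 is the lowest WT array in 8 of the 12 panels.

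Of the perilipins, none was called. *Plin1*, the perilipin of adipocytes and the partner of CIDEC on their droplets, did not rise well above background anywhere with any of its 3 probes, so no fold change is given. *Plin2*, the coat of droplets in most cells that store some fat, was measured on all 8 arrays with both of its probes. Its level was 0.79, 1.05, 1.05 and 1.52 in βUCP2Tg replicates 1 to 4, and 0.97, 1.56, 1.70 and 1.80 in WT replicates 1 to 4. Most βUCP2Tg arrays were low and most WT arrays high, but βUCP2Tg replicate 4 lay near the WT arrays and WT replicate 1 among the βUCP2Tg arrays.

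The log2 fold change of *Plin2* was -0.41 (SE 0.22). The dim second probe gave -0.20 (SE 0.12), with levels of -3.01 to -2.54 in βUCP2Tg and -2.60 to -2.49 in WT. Without both βUCP2Tg replicate 4 and WT replicate 1, an exclusion chosen after the data had been seen, the log2 fold change of the brighter probe was -0.72 and *Plin2* was called lower. Of the arrays left out, WT replicate 1 was the one that broke the separation of *Plin2*. Without it βUCP2Tg read at most 1.52 and WT at least 1.56. With both left out, 5486 of 34324 probes were called, against 145 with all arrays.

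*Plin3*, which coats small nascent droplets in most cells, read 0.31, 0.49, 0.37 and 0.30 in βUCP2Tg and -0.22, 0.74, 0.39 and 0.55 in WT. The mean was 0.37 in both groups, with an SD of 0.09 in βUCP2Tg and 0.41 in WT, and the log2 fold change was 0.00 (SE 0.19). WT replicate 1 was again the lowest array. *Plin4*, a perilipin of fat and muscle, was close to background. It read -5.48, -5.70, -5.53 and -5.71 in βUCP2Tg, where replicates 1 and 3 were well above background, and -5.60, -4.85, -5.26 and -4.62 in WT, where all 4 were. The log2 fold change was -0.52 (SE 0.21), and without WT replicate 1 it was -0.69 and *Plin4* was called lower. In that setting 3759 of 34786 probes were called, against 145 with all arrays.

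*Plin5*, the perilipin of tissues that burn fat, links droplets to mitochondria. Within βUCP2Tg its tested probe had an SD of 1.14, the widest among the tested member probes, and within WT an SD of 0.31. One probe read -6.62, -7.78, -5.01 and -6.25 in βUCP2Tg and -5.64, -5.20, -5.01 and -5.61 in WT. In βUCP2Tg it was well above background in replicate 3 alone, and in WT on replicates 1, 2 and 3. As 3 of the βUCP2Tg values were not well above background, the measured log2 fold change of -1.05 (SE 0.51) is inexact, and leaving out single arrays moved it between -1.52 and -0.60. Without βUCP2Tg replicate 3 no βUCP2Tg array had this probe well above background, and it was no longer tested. It was also no longer tested without WT replicate 1, 2 or 3. The other *Plin5* probe was well above background on βUCP2Tg replicate 3 only, at -4.77, against -8.08 to -6.02 on the others, and entered no comparison.

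βUCP2Tg replicate 3 was also the array with hepatocyte transcripts. *Serpina1a*, one of several near-identical genes for a secreted protease inhibitor of the liver, read 5.11 there against -1.98 to -0.49 elsewhere. *Apoa1* and *Cyp2e1* were well above background on that array alone, at -1.11 and -2.83. The summed level of the 2 hepatocyte genes tested, *Alb* and *Serpina1a*, was 5.91 there. It was -1.26 to -0.44 on the other βUCP2Tg arrays and -1.63 to -0.38 on the WT arrays. Among genes noticed after their values were seen, *Slc27a2*, a fatty acid transporter of liver, read -1.67 on that array. On the other βUCP2Tg arrays it read -3.87 to -3.43, all above the WT arrays at -4.72 to -4.52. The lipase gene *Ces1d* read -4.02 on βUCP2Tg replicate 3 against -8.19 to -6.33 elsewhere. The part of these transcripts in the *Plin5* values was not tested. The *Cidec* level in replicate 3, -3.94, lay within the range of the other βUCP2Tg arrays. Without that array the log2 fold change of *Cidec* was 1.74 and the call was lost. The part of hepatocyte transcripts in the *Cidec* values was not tested.

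**Figure D2:**
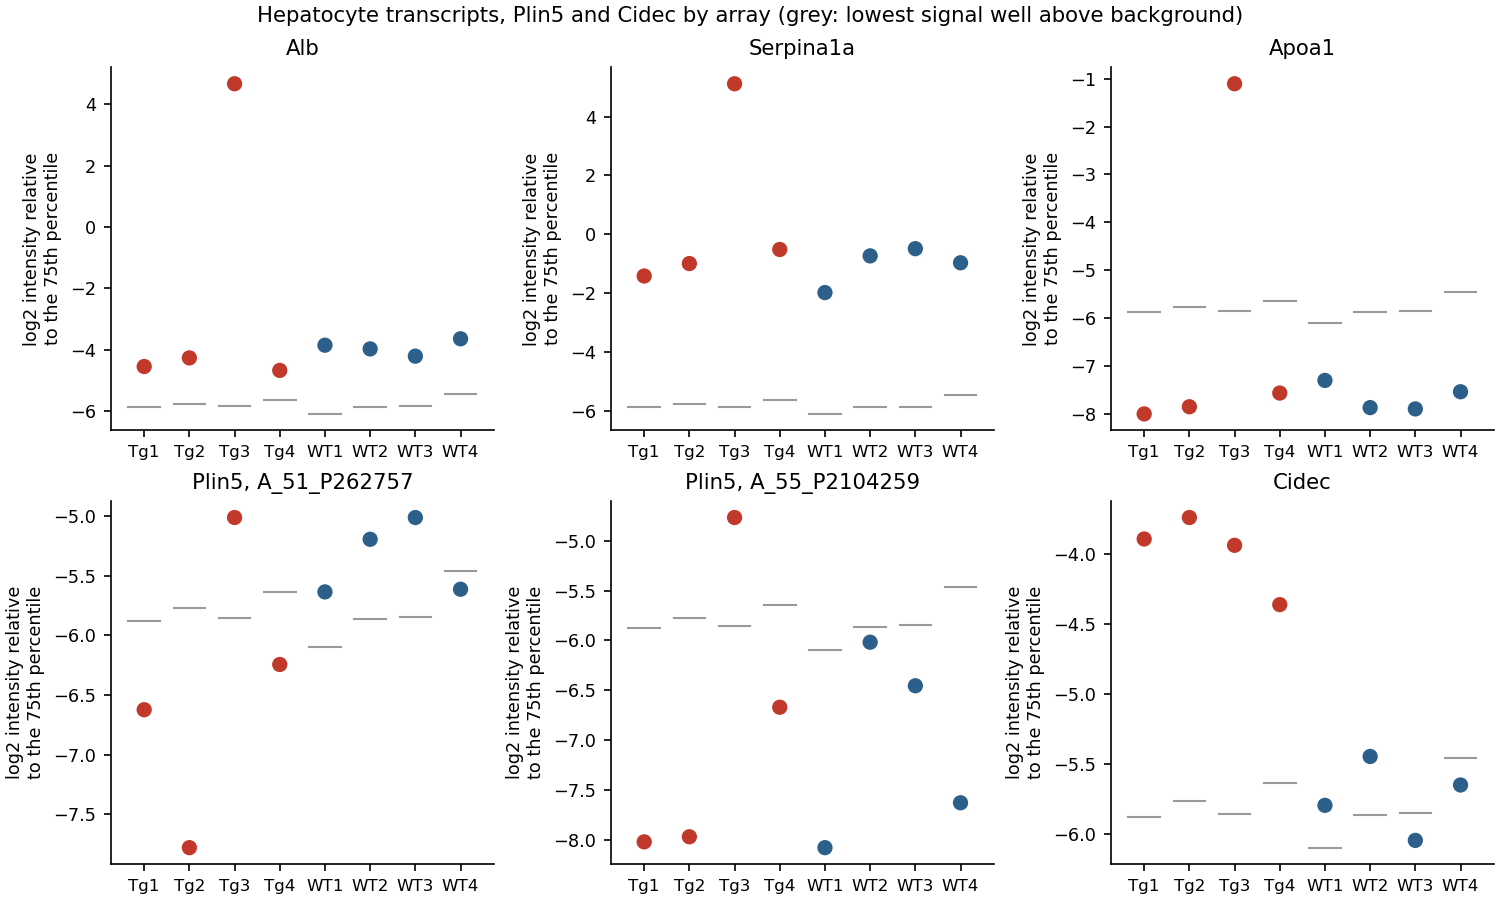
Level of *Alb*, *Serpina1a*, *Apoa1*, both *Plin5* probes and *Cidec* on each array, as log2 intensity relative to the 75th percentile, in βUCP2Tg (red, Tg1 to Tg4) and WT (blue, WT1 to WT4). Grey dashes mark the lowest signal well above background on each array. *Alb* reads 4.67 on βUCP2Tg replicate 3 and at most -3.65 elsewhere, and both *Plin5* probes peak among βUCP2Tg arrays on the same array, while *Cidec* does not.

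The lipases were not called. *Pnpla2* read 2.77, 3.09, 3.04 and 2.74 in βUCP2Tg and 2.31, 2.81, 2.77 and 2.42 in WT. The groups overlapped slightly, and the log2 fold change was 0.33 (SE 0.15). *Lipe* was represented by 3 probes, of which 1 stayed at background throughout. The brighter tested probe read -3.30, -3.28, -3.26 and -2.92 in βUCP2Tg and -3.26, -3.22, -3.32 and -3.68 in WT, with a log2 fold change of 0.18 (SE 0.14). Here the groups overlapped. The dimmer one read -4.52, -4.64, -4.46 and -4.72 in βUCP2Tg and -5.20, -4.88, -5.06 and -5.19 in WT. On this probe all βUCP2Tg arrays were higher, by 0.50 on the log2 scale (SE 0.11), which is 1.41-fold, and it passed neither the fold limit nor the adjusted p limit set for a call.

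In all, 1 of the 9 members tested was called, against 0.649% of all genes, a comparison from which nothing is read because the same contrast entered the choice of members. By the brightest tested probe of each gene, 4 members were higher and 5 lower in mean, with a median log2 fold change of -0.08, against 0.03 over all genes. The groups did not overlap for 1 of these 9 probes, against 13.1% of genes.

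**Figure D3:**
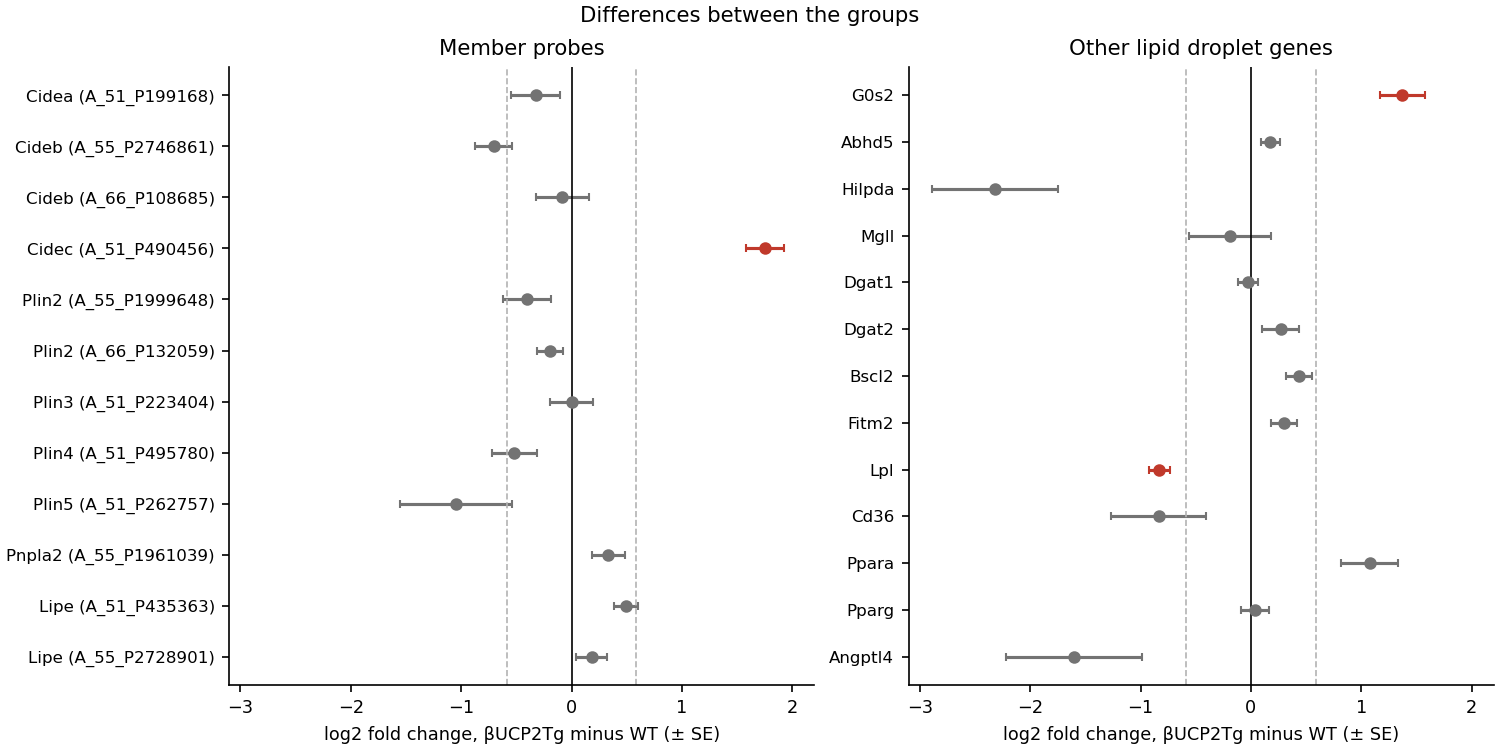
Log2 fold change (βUCP2Tg minus WT, ± SE) of the 12 tested member probes and of 13 other lipid droplet genes. Red points were called, and dashed lines mark a change of 1.5-fold. *Cidec* (1.75) and *G0s2* (1.37) lie to the right and *Lpl* (-0.83) to the left as called genes, while *Hilpda* (-2.32) has a wide error.

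The genes that act around the members were taken from 6 lists with 83 genes, of which 77 were tested. *G0s2* was called higher and *Lpl* lower, so that 1 of 77 was called in each direction, against 0.325% of all genes in each direction. A probe at an unadjusted p under 0.05 (limma) was found for 33 of the 77, against 33.5% of all genes. The brightest tested probe did not overlap between the groups for 21, against 13.1% of all genes. As the lists were chosen with earlier results of these data known, nothing is read from these shares. The median log2 fold change over the 77 was 0.10.

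*G0s2* encodes a small protein that binds ATGL and blocks it. Its level was -2.48, -2.96, -2.72 and -2.85 in βUCP2Tg and -4.32, -4.59, -3.72 and -3.86 in WT. All βUCP2Tg arrays were above all WT arrays, with a log2 fold change of 1.37 (SE 0.21), or 2.59-fold (limma adjusted p = 0.0456). Under normexp it was 0.51, below the fold limit of 0.585 on the log2 scale, so the call was lost. The limma adjusted p there was 0.0301. *Abhd5*, which encodes CGI-58, the coactivator of ATGL, had a log2 fold change of 0.18 (SE 0.09, limma adjusted p = 0.239). For *Mgll*, the lipase of the final step, it was -0.19 (SE 0.37, limma adjusted p = 0.78). In the list of lipolysis and its regulators, 12 genes were tested, 1 was called higher and none lower, against 0.325% of all genes in each direction.

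*Hilpda* encodes a further inhibitor of ATGL, one induced by low oxygen. It read 0.16, 0.28, 0.26 and 1.95 in βUCP2Tg and 1.47, 3.63, 3.54 and 3.30 in WT. The arrays that broke the separation were βUCP2Tg replicate 4 and WT replicate 1. The log2 fold change of -2.32 (SE 0.57) did not pass (limma adjusted p = 0.0873), and *Hilpda* was called lower when either of those arrays was left out, settings under which more probes were called in all (1467 and 3759).

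*Lpl* encodes lipoprotein lipase, which frees fatty acids from circulating lipoproteins. Its brightest probe read 1.44, 1.71, 1.68 and 1.69 in βUCP2Tg and 2.38, 2.50, 2.44 and 2.52 in WT. The groups were well apart, with a log2 fold change of -0.83 (SE 0.09, limma adjusted p = 0.0231), and a second of its probes was called at -1.62 (SE 0.25, limma adjusted p = 0.0456). The other *Lpl* probes had log2 fold changes of -0.69, -0.81, -0.88 and -1.49 and were not called. The calls of *G0s2* and of *Lpl* were each kept without βUCP2Tg replicate 4 or WT replicate 1 and lost when any other single array was left out.

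Other genes of fatty acid uptake and lipid making showed no call. In the list of fatty acid uptake and activation 12 genes were tested, and *Lpl* was the one called, against 0.325% of all genes called lower. *Cd36*, a fatty acid translocase, had a log2 fold change of -0.84 (SE 0.43, limma adjusted p = 0.256). In the list of triglyceride synthesis none of the 14 genes tested was called and 4 had a probe at an unadjusted p under 0.05, with values of -0.03 (SE 0.09, limma adjusted p = 0.877) for *Dgat1* and 0.27 (SE 0.17, limma adjusted p = 0.338) for *Dgat2*, the enzymes of the last step. Among 17 genes of droplet assembly and surface none was called and 8 had such a probe. *Bscl2*, which encodes seipin, the protein at the neck of forming droplets, had a log2 fold change of 0.43 (SE 0.12, limma adjusted p = 0.0991), and *Fitm2*, needed for droplets to bud, 0.30 (SE 0.12, limma adjusted p = 0.171).

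**Figure D4:**
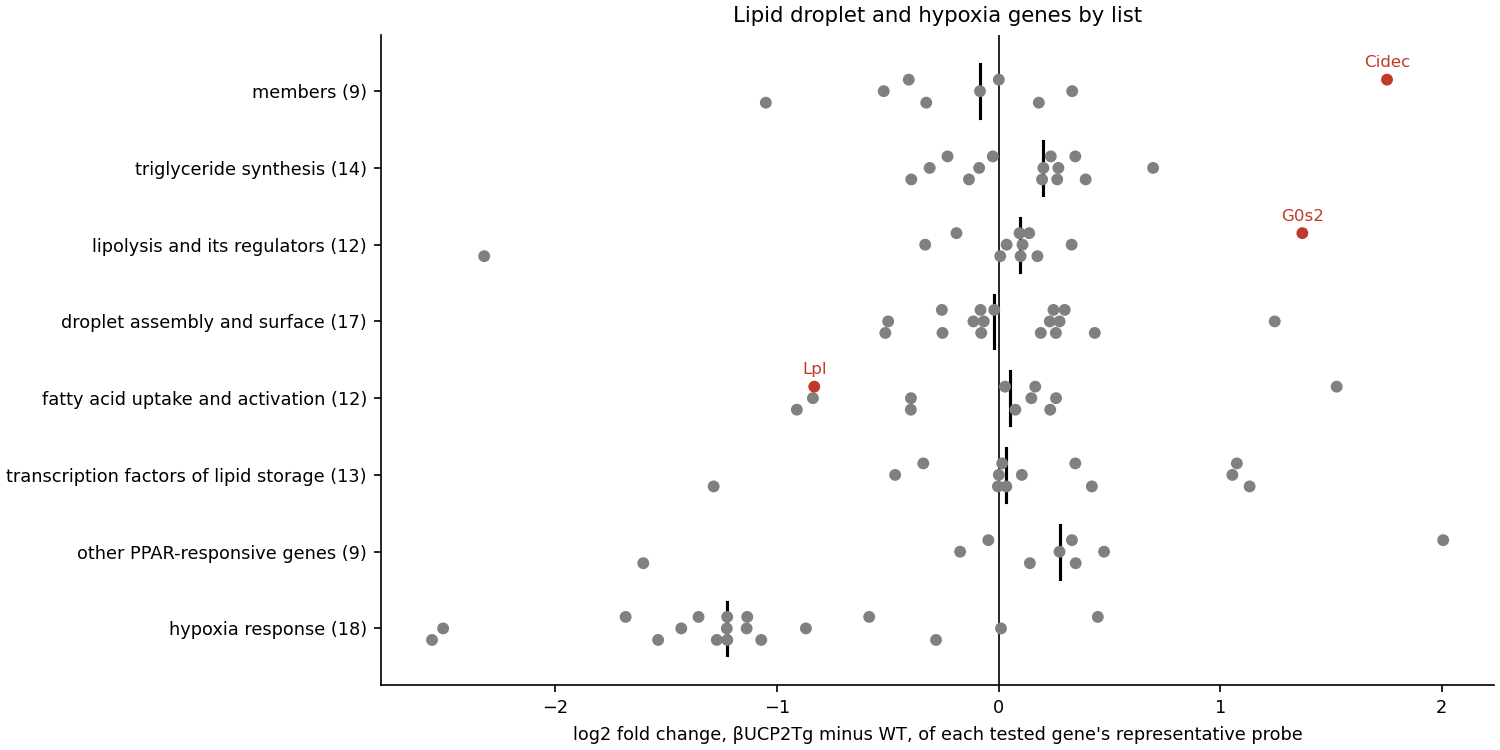
Log2 fold change (βUCP2Tg minus WT) of the brightest tested probe of each gene, by list, with the number of genes tested in parentheses. Points are genes, black bars are medians and red points are called genes. The lipid lists have medians between -0.02 and 0.28, and the hypoxia response list has a median of -1.22.

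Transcription factors of lipid storage and other genes that respond to PPARs were measured as well. None of 13 factors and none of 9 further PPAR-responsive genes was called, with 7 and 4 of them at an unadjusted p under 0.05. *Ppara*, the PPAR of fat oxidation, had a log2 fold change of 1.08 (SE 0.26, limma adjusted p = 0.0859), and *Pparg*, the PPAR of adipocytes, 0.04 (SE 0.13, limma adjusted p = 0.885). *Angptl4*, an inhibitor of lipoprotein lipase that responds both to PPARs and to low oxygen, had -1.60 (SE 0.61, limma adjusted p = 0.159), with levels of -3.63 to -1.59 in βUCP2Tg and -2.89 to -0.45 in WT. Chosen after their values were seen, *Fgf21*, a hormone induced by fasting, read -2.90 to -1.93 in βUCP2Tg and -5.32 to -3.16 in WT (log2 fold change 2.01, SE 0.42, limma adjusted p = 0.0723), and *Soat2*, which makes cholesteryl esters for droplets, -1.97 to -1.66 and -3.76 to -2.12 (1.25, SE 0.31, limma adjusted p = 0.0873).

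The hypoxia response genes followed the same arrays as *Plin2*, *Hilpda* and *Angptl4*. Of these 18 genes, 16 were lower in mean in βUCP2Tg and none was called. A lower probe at an unadjusted p under 0.05 (limma) was found for 15, against 18.6% of all genes. As the list was chosen with earlier results of these data known, nothing is read from these counts. *Slc2a1*, the glucose transporter GLUT1, read 1.16, 1.20, 1.37 and 4.05 in βUCP2Tg and 3.22, 4.98, 4.74 and 4.86 in WT. *Bnip3*, a mitochondrial target of hypoxia-inducible factors, read 4.09, 4.08, 4.05 and 5.83 in βUCP2Tg and 5.18, 6.30, 6.26 and 6.45 in WT. In both genes, βUCP2Tg replicate 4 stood above the rest of its group and WT replicate 1 below the rest of its own. The part of this response in the values of *Plin2* and *Hilpda* was not tested. *Cidec*, *G0s2* and *Lpl* kept their groups apart on these arrays, where βUCP2Tg replicate 4 read -4.36, -2.85 and 1.69 and WT replicate 1 read -5.80, -4.32 and 2.38.

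**Figure D5:**
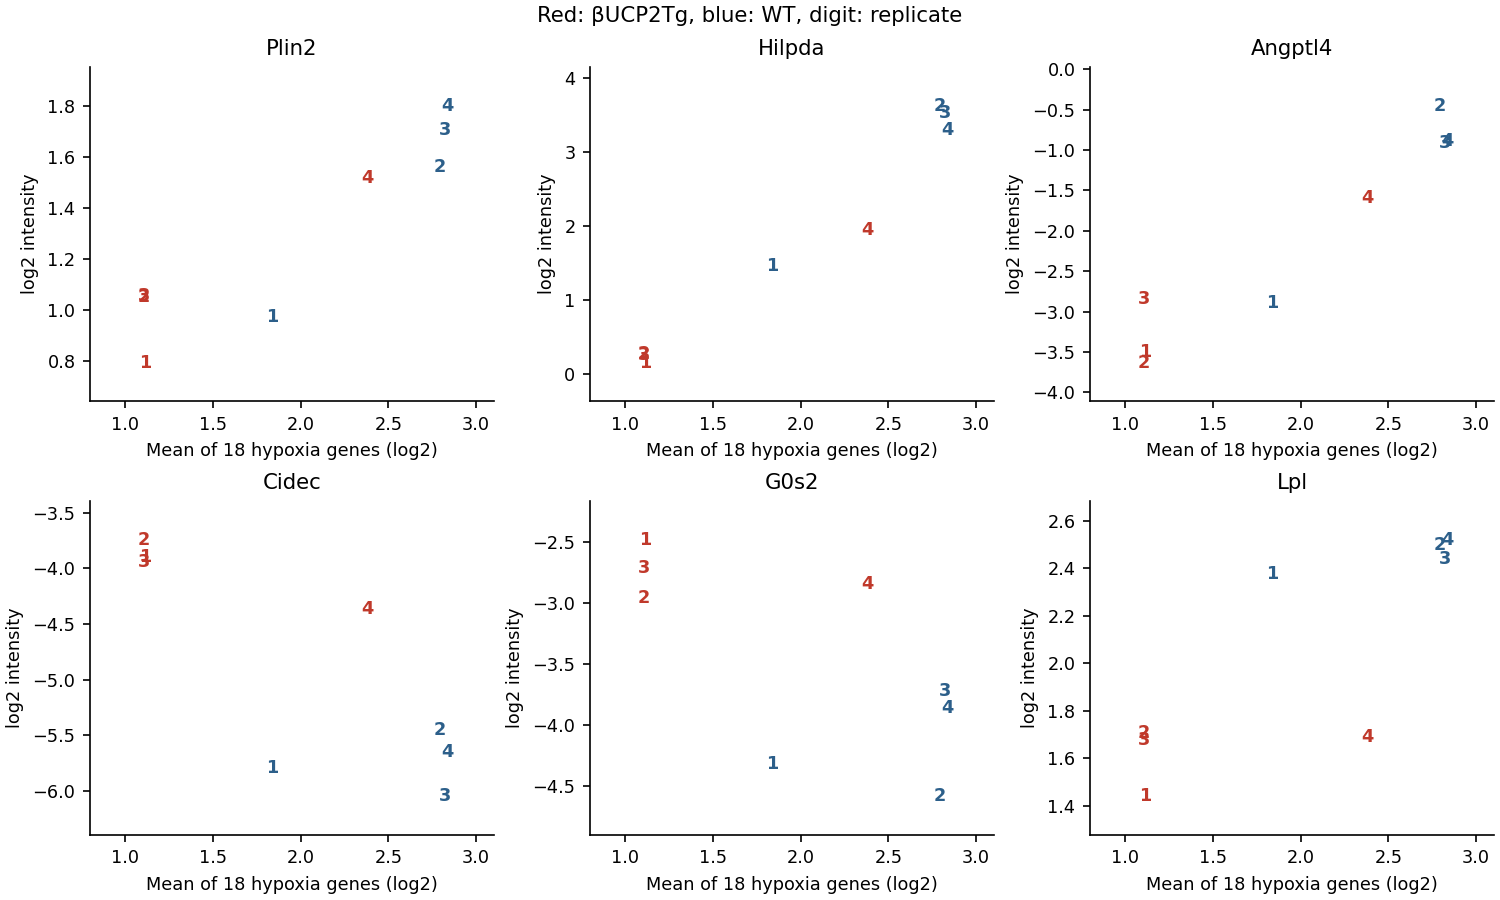
Level of *Plin2*, *Hilpda*, *Angptl4*, *Cidec*, *G0s2* and *Lpl* on each array (log2 intensity relative to the 75th percentile, vertical axis) against the mean of 18 hypoxia response genes on the same array (horizontal axis). Red digits are βUCP2Tg replicates and blue digits WT replicates. In the upper row βUCP2Tg replicate 4 and WT replicate 1 lie between the other arrays or next to those of the opposite genotype, and in the lower row the genotypes stay apart.

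The genes most like *Cidec* and *Plin2* across the 8 arrays were found by Pearson correlation over 35343 probes. These are descriptions over 8 points that share genotype, slide and scaling. For *Cidec* they were *Lrrk1* (r = 0.990), *Cdk5rap3* (0.986) and *Cdkn1a* (0.986). With the mean of each genotype taken off they were *Slc46a3* (0.996), *Slc9a7* (0.970) and *Hist1h4d* (0.963), so no gene was in both groups of 3. For *Plin2* they included *Cdc42ep3* (0.994) and *Cars2* (0.989), and after removing the means *Sgce*, *Cdc42ep3* and *N4bp2l2* (0.991 each), so that *Cdc42ep3* was among both.

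The promoters of *Cidec* and *Plin2* are shown because the first was called and the second followed the hypoxia response genes. The sequences are from RefSeq (GRCm38.p6), run from 250 bases before to 50 after an annotated start, and are written 5′ to 3′ on the strand of the gene. *Cidec* has 2 such starts, and its single probe does not say which was used. Capitals mark matches on either strand to AGGTCA, the half-site of nuclear receptors such as PPARs, and to ACGTG or GCGTG, the core of sites for hypoxia-inducible factors.
Cidec, first start, chr6:113435711-113436010, minus strand: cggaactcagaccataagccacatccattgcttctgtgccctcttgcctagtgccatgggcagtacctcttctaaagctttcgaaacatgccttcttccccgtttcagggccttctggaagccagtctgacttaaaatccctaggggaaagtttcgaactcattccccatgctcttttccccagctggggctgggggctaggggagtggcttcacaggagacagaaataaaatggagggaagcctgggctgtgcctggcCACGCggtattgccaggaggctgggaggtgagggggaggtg
Cidec, second start, chr6:113434715-113435014, minus strand: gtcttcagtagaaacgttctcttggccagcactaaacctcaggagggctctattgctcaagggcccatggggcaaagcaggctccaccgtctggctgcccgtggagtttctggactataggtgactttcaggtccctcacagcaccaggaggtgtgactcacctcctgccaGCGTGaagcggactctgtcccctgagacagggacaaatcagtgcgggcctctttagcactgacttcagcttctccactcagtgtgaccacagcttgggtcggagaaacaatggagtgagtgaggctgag
Plin2, chr4:86670010-86670309, minus strand: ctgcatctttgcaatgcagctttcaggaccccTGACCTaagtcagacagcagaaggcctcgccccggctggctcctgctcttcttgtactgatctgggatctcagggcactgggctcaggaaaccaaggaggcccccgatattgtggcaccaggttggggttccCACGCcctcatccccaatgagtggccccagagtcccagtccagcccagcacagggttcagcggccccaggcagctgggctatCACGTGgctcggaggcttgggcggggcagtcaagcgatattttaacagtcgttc
Each *Cidec* promoter held GCGTG once and neither held AGGTCA or ACGTG. The *Plin2* promoter held AGGTCA once, GCGTG once, and ACGTG on both strands in a single overlapping match, CACGTG. Of 32851 promoters of this length, 16.3% held AGGTCA and 43.8% held ACGTG or GCGTG, so such matches are common. They are matches of letters and not sites shown to be bound.

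Markers of adipocytes, cells in which *Cidec* is abundant, were read on the same arrays. *Cfd* and *Adrb3* stayed at background throughout, and *Adipoq*, the defining transcript, was well above background on WT replicate 1 alone. Of 8 adipocyte markers 5 were tested and none was called, with 2 higher in mean in βUCP2Tg (*Lep* and *Retn*), 3 lower (*Fabp4*, *Slc7a10* and *Thrsp*) and a log2 fold change of -0.66 to 0.19. Their summed level was 0.92 to 1.20 in βUCP2Tg and 1.30 to 1.74 in WT, and *Fabp4*, which endothelium also carries, was the brightest contributor by its own probe, at 0.03 to 0.65 and 0.71 to 1.26. The part of adipocyte transcripts in the *Cidec* values was not tested. *Plin1* stayed at background as well. The β-cell transcripts *Ins1* and *Ins2* read 8.25 to 8.77 and 9.00 to 9.33 in βUCP2Tg, and 8.62 to 8.70 and 9.29 to 9.37 in WT. Of the 8 β-cell genes tested 2 were higher and 6 lower in mean in βUCP2Tg, with a median log2 fold change of -0.12.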

How the data were processed

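Cy3-labelled RNA of each islet sample was hybridised to an Agilent mouse array. The authors scanned the arrays with Agilent Feature Extraction (10.7.3.1 per the file headers, 9.1 in the submitters' processing notes) and deposited the processed intensity of each spot after background subtraction, and a table of log2 normalized values shifted by array, whose columns of fold changes and p-values were not used. Gene symbols and probe sequences are those of that table. *Spart* was found on the array as *Spg20*.

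From the scanner files, control and outlier spots were dropped, intensities were put on the log2 scale, lowered by the 75th percentile of their array and averaged over the spots of a probe. Probes well above background (on at least 50% of their spots) on at least 4 of 8 arrays were tested with limma 3.58.1 in R 4.3.3 (lmFit, eBayes), without the replicate number as a block. A call needed an adjusted p under 0.05 and over 1.5-fold, for any probe of a gene. The brightest tested probe stood for a gene. Listed genes were named where called or defining, and others are said to have been chosen after their values were seen. Of the 3 genes most like *Plin2*, 1 is not reported here. The script was tested on simulated data. Plots used matplotlib 3.10.9. The members and gene lists (6 lipid lists, hypoxia response and 6 cell type lists) were chosen with earlier results of these data known. Alternatives were other filters, scalings and background corrections, the deposited values, outlier spots kept, the methods' t-test, no fold limit, a replicate block, another probe summary and leaving out arrays. The number of arrays, 4 per group, limits the precision.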

Additional observations from a re-analysis of the deposited data

Results flagged for a closer look

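The values of each group of 4 arrays were searched for an array whose gap to its nearest neighbour, as a share of the range of the group, exceeded Dixon's critical value for 4 values. Chance alone marks about 1 group in 20, or 3.2 of the 64 groups examined, and 9 were marked. Most were in βUCP2Tg replicate 4 and WT replicate 1, with 3 each.

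Of the members, *Lipe* was marked in βUCP2Tg, where replicate 4 read -2.92 against -3.30 to -3.26 and the gap was 0.909 of the range. *Hilpda* was marked in both groups, in βUCP2Tg replicate 4 (0.934, at 1.95 against 0.16 to 0.28) and in WT replicate 1 (0.848, at 1.47 against 3.30 to 3.63). The mean of the hypoxia response genes was marked in the same arrays, with 0.994 in βUCP2Tg and 0.96 in WT. *Lpl* was marked in βUCP2Tg replicate 1 (0.892, at 1.44 against 1.68 to 1.71) and *Pparg* in WT replicate 4 (0.88, at 2.46 against 2.01 to 2.06).

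The mean of the hepatocyte genes tested was marked in βUCP2Tg replicate 3 (0.951, at 4.89 against -2.99 to -2.60) and in WT replicate 1 (0.922, at -2.92 against -2.36 to -2.31).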

How the results depend on the processing

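Under 10 alternatives with all arrays, *Cidec* was the called member except with a filter requiring detection on all 8 arrays, which it does not pass, with normexp and with the replicate block, where 0 members were called. With no filter on dim probes, 21 probes and 0 lipid pathway genes were called, and with the filter at all 8 arrays 237 probes. Normexp gave 805 probes (231 higher, 574 lower, against 73 and 72) and 5 pathway genes, with a log2 fold change of 0.28 for *Cidec*. The methods' t-test gave 2832 probes at its unadjusted threshold, *Cideb* and *Cidec* among the members, and after Benjamini-Hochberg 26 probes, *Cidec*, and 1 pathway gene. Deviations of same-numbered samples from their group means correlated at r = 0.44, -0.05, -0.01 and -0.24. These few values cannot show whether the numbers pair the samples. The replicate block gave 14 probes and 0 pathway genes.

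Leaving out each array in turn gave 8 to 3759 probes, 0 to 3 members and 0 to 13 pathway genes. The count of probes was 8 without βUCP2Tg replicate 1, 2 or 3, 1467 without replicate 4, 3759 without WT replicate 1, and 25, 15 and 24 without WT replicates 2, 3 and 4. Without both βUCP2Tg replicate 4 and WT replicate 1, chosen after seeing the data, 5486 probes, 3 members (*Cidec*, *Plin2* and *Plin4*) and 17 pathway genes were called. The cause was not tested. Among called genes, *Cidec*, *G0s2*, *Lpl* and *Ucp2* did not change sign under the alternatives run, and *Cd14* was not rerun. Among genes not called, *Plin3*, *Cideb*, *Dgat1*, *Mgll*, *Pparg* and *Lipe* changed sign under 1 to 6 of 18 alternatives. Dim signals limit *Cidec*, *Plin4* and *Plin5*.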

Other observations

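Cell type transcripts other than those of adipocytes and hepatocytes were read on the same arrays. Acinar genes varied widely within both groups, with a summed level of 3.20 to 7.36 in βUCP2Tg and 3.77 to 8.22 in WT, and none of the 9 tested was called. All 9 were lower in mean in βUCP2Tg, with a median log2 fold change of -1.81, against 0.03 over all genes, and none had an unadjusted p under 0.05 (limma) or groups that did not overlap. The part of this list in the members' values was not tested. *Cela2a*, an elastase of acinar cells, read 1.53, 3.37, 1.72 and 5.85 in βUCP2Tg and 5.44, 6.51, 6.95 and 2.16 in WT. βUCP2Tg replicate 4 was thus the highest of its group in this list as in the hypoxia response list, whereas the lowest WT array was replicate 4 and not replicate 1.

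Of 6 macrophage genes tested, *Cd14*, a receptor for bacterial lipopolysaccharide, was called lower in βUCP2Tg, against 0.325% of all genes. It read -1.20 to 0.03 against 0.72 to 1.89 (log2 fold change -2.10, SE 0.33, limma adjusted p = 0.048), and was called on 1 of its 2 probes. *C1qa*, a complement gene of tissue macrophages, read 1.76 to 1.91 against 0.90 to 1.48 (0.66, SE 0.15, limma adjusted p = 0.0823). Of the 6, 4 were lower and 2 higher in mean in βUCP2Tg, with a median log2 fold change of -0.47, and their summed level was 3.08 to 3.35 in βUCP2Tg and 3.50 to 3.82 in WT. The part of this list in the members' values was not tested. None of the 6 endothelial genes or of the 8 β-cell genes was called. Of the endothelial genes 3 were higher and 3 lower in mean in βUCP2Tg, with log2 fold changes of -0.36 to 1.01 and a median of 0.19. Their summed level was higher on all βUCP2Tg arrays, at 4.04 to 4.27, than on the WT arrays, at 3.40 to 3.98. The part of the endothelial list in the members' values was not tested.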
